A study of Mus musculus with 12 samples.

Results

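Complement and coagulation are 2 cascades of plasma proteases that are made for the most part by hepatocytes and act in blood. In complement, the lectin pathway (mannose-binding lectins and their proteases), the classical pathway and the alternative pathway each build an enzyme that cleaves C3. The cleavage products label targets for uptake, and the terminal components C5 to C9 assemble into a pore in the target membrane. In coagulation, contact factors or tissue factor start a chain of zymogens that ends in thrombin and fibrin, antithrombin and protein C limit it, and plasmin dissolves the clot. The 38 genes described here were taken by name, 18 of complement and 20 of coagulation and closely linked secreted proteins. Of these, 33 were measured by a probe set (a group of oligonucleotides read as 1 value) that names a single gene, 14 of complement and 19 of coagulation, among 18193 genes measured in all. C3, C7, Cfd and Cpb2 had no such probe set, and the only one for C4b also names C4a.

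Levels were measured in 6 hepatocellular carcinomas (HCC) of spontaneous origin and in 6 normal livers, all from untreated 2-year-old B6C3F1 mice, the cross of C57BL/6 and C3H strains used by the National Toxicology Program. Each sample was hybridised to 1 single-colour Affymetrix array. The labels number the samples of each group and do not name the animals or their sex, so p-values measure only the spread between these samples, and the number of arrays limits the precision. A level is log2(intensity + 16) after quantile normalization, a difference is HCC minus normal liver on that log2 scale, and for each gene the brightest probe set was used. A difference was called when limma's p, adjusted by Benjamini-Hochberg over all 18193 genes, was under 0.05. By this rule 13.7% of all genes were called, 6.48% as higher and 7.24% as lower in HCC.

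Hepatocyte markers fixed as a list (6 genes) had a summed intensity of 213682 to 308173 in HCC and 220977 to 296483 in normal liver. Of the 6, 1 was called lower, the enzyme Tat (-1.14), and 4 differed by under 0.5 in size. These 4, Alb, Ttr, Apoa1 and Apob, had group means of 15.27 to 16.06, near the upper end of the scale. Quantile normalization gave Apoa1 the same level, 16.0644, in all 6 normal livers, so small differences there say little. The remaining marker, Cps1, differed by -0.86. The sum hides single genes. Cps1, which did not pass, lay at 12.65 in HCC 1 and 13.66 in HCC 4, against 15.22 to 15.34 in normal liver. The tumour markers Afp and Gpc3 were higher by 8.26 and 5.38. No marker of any cell type on the lists was at 0. The samples are bulk tissue, in which fewer cells of a type and less RNA per cell cannot be told apart. Signal from the Y chromosome through Eif2s3y, Kdm5d and Uty is here called Y-linked signal. It was present in 4 HCC and 4 normal livers and missing in HCC 1, HCC 4, normal 1 and normal 3. In these arrays without it the level of Xist was 11.79, 12.03, 11.97 and 12.70, in that order. In the arrays with it Xist lay between 5.12 and 7.56.

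In HCC 3 of 4 lectin pathway genes were lower and the convertase proteases C2 and Cfb higher, while 1 of 19 coagulation genes was called. Among complement genes 6 of 14 (42.9%) were called, against 13.7% of all genes, 2 higher and 4 lower (Mbl1, Mbl2, Masp1 and C8g). The other 8 did not pass, and the median difference over the 14 was -0.71, against -0.04 over all genes. Among coagulation genes 1 of 19 (5.26%) was called, again against 13.7% of all genes. It was prekallikrein (Klkb1), which was lower. In 15 of these 19 genes the difference was under 0.5 in size, a share not far above the 69.2% of all genes. The median size was 0.138 against 0.314 over all genes. F2, Plg, Serpinc1, Kng1 and Ahsg, all among those 15, had mean intensities over 30000, where compression of differences was not tested. In 5 complement genes (2 above, 3 below) and in no coagulation gene the 6 HCC lay wholly above or below the 6 normal livers, which held for 8.76% of all genes (4.25% above and 4.5% below).

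**Figure D1:**
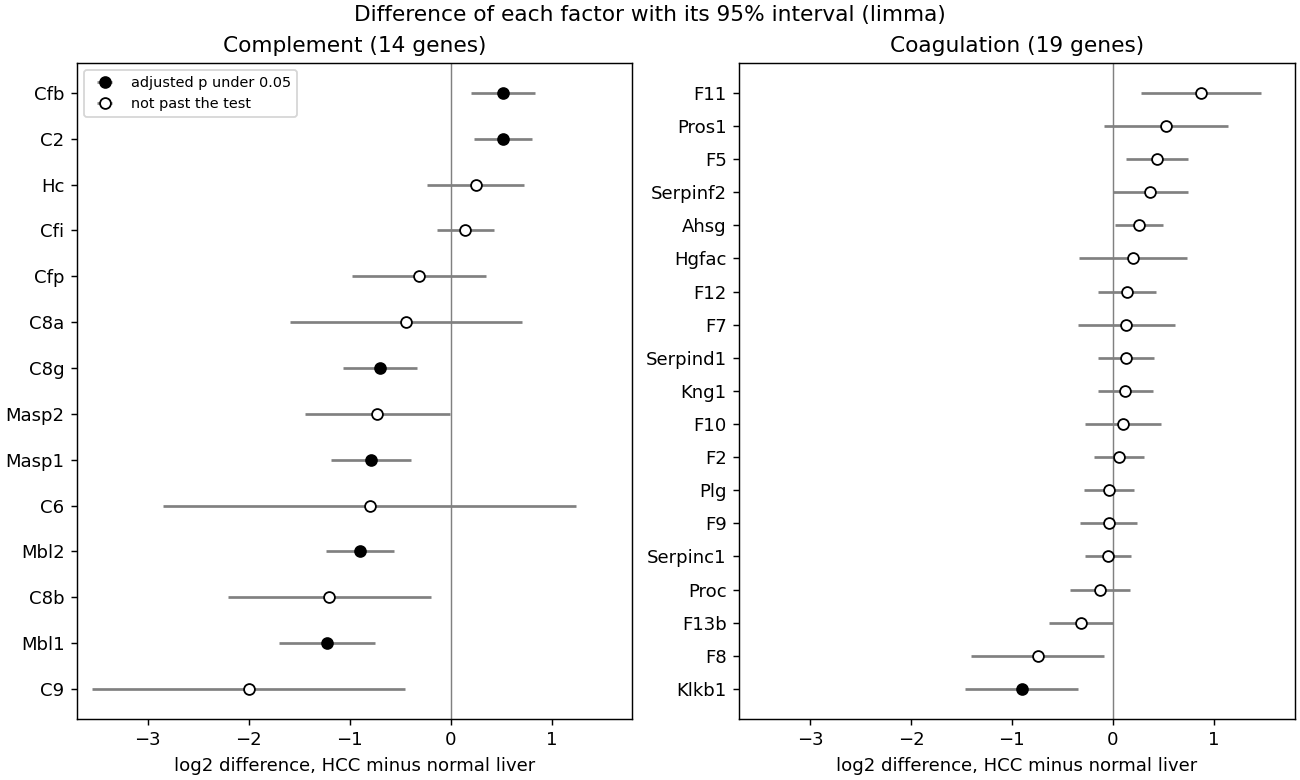
Log2 difference (HCC minus normal liver, horizontal axis) of the 14 complement genes (left) and the 19 coagulation genes (right), with limma's 95% interval as a bar and n = 6 in each group. Filled circles are the 7 genes with an adjusted p under 0.05, and most coagulation genes sit close to 0 while C9, Mbl1 and C8b lie farthest to the left.

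The lectin pathway starts when mannose-binding lectins bind sugars on a microbe. Mouse has a pair of such lectins, Mbl1 (MBL-A) and Mbl2 (MBL-C), which carry the proteases Masp1 and Masp2. The 300 bases around the start of each lectin gene (250 before and 50 after, RefSeq, GRCm38.p6) are shown because the genes fell together and share a stretch. They are chr14:41151206-41151505 on the + strand for Mbl1 and chr19:30232678-30232977 on the + strand for Mbl2. The capitals mark the longest run of identical letters in the same strand of both windows.
Mbl1: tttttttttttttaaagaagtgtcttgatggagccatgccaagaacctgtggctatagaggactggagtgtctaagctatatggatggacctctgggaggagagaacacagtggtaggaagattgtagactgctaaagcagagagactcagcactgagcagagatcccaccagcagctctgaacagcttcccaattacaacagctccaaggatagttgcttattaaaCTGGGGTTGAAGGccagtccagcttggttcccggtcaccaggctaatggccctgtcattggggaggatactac
Mbl2: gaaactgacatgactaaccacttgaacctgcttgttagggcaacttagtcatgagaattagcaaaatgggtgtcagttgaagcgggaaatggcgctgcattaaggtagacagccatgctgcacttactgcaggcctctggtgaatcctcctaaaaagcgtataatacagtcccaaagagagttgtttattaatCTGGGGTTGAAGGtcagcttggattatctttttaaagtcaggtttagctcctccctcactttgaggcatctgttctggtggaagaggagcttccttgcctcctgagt
This run of 13 bases begins 23 bases before the start of Mbl1 and 57 bases before that of Mbl2. It was found in 3 of 32851 promoter windows of the genome, or 0.00913%, which were those of Mbl1, Mbl2 and Slc25a53. The run was picked because Mbl1 and Mbl2 share it, so their hits were given in advance. A link between the run and the levels was not tested.

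Mbl1 levels in HCC had a lowest value of 10.60, a median of 11.47 and a highest value of 11.81, against 12.26, 12.56 and 12.79 in normal liver. Every HCC lay below every normal liver, and HCC 3 and HCC 6 were the lowest. The mean was 11.33 ± 0.51 in HCC and 12.55 ± 0.21 in the normal livers (SD, n = 6 per group), a difference of -1.22 ± 0.22 (SE, limma adjusted p = 0.00357), or 0.428 times the normal level on the linear scale. Mbl2 had a lowest level of 13.20, a median of 13.90 and a highest level of 14.06 in HCC, against 14.58, 14.64 and 14.81 in normal liver. The groups again did not overlap, HCC 6 was the lowest, and the difference was -0.90 ± 0.16 (limma adjusted p = 0.00304). Both genes passed also in the contrast of the 8 arrays that showed the Y-linked signal, 4 of each group, at -1.45 for Mbl1 and -0.87 for Mbl2 (limma adjusted p of 0.00783 and 0.0240). This contrast came from a model of all 12 arrays, which also gave its variance. In the 4 other arrays, 2 of each group, the differences were -0.78 and -0.95 and did not pass.

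Masp1, the protease that activates Masp2, lay at 11.14, 11.66 and 12.04 (lowest, median and highest) in HCC and at 12.17, 12.39 and 12.65 in normal liver. The groups did not overlap, HCC 1 and HCC 6 being lowest, and the gene fell by 0.78 ± 0.18 on the log2 scale (SE, adjusted p = 0.0140 by limma). The other 4 probe sets of Masp1 gave differences from -0.78 to 0.07, and with the mean of all 5 the call was lost (adjusted p = 0.0640). Masp2, the protease that cleaves C4 and C2, lay at 10.09, 11.54 and 12.08 in HCC and at 11.68, 11.97 and 12.49 in normal liver. These ranges overlapped, with HCC 1 and HCC 6 far below the rest, and the difference of -0.72 ± 0.33 did not pass (limma adjusted p = 0.171).

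Other recognition molecules of complement were taken from a list of 11 initiators, of which 9 were measured. Of these, 4 were called lower and none higher, against 7.24% and 6.48% of all genes. The 5 that did not pass all had differences above 0, among them C1qa (0.83), C1qb (0.81) and C1qc (0.51). Colec10, which forms joint lectin complexes with Colec11, lay at 5.61, 7.36 and 8.14 in HCC and at 10.23, 10.41 and 10.59 in normal liver. It fell by 3.22 ± 0.36 on the log2 scale (adjusted p = 0.000185 by limma), and the groups were far apart. Colec11 fell by 1.39 ± 0.40 (adjusted p = 0.0352), ficolin A (Fcna), which in mouse is made by macrophages of liver and spleen, by 1.41 ± 0.26 (0.00466), and the pentraxin Crp by 0.63 ± 0.14 (0.0127). The call of Colec11 was lost when any 1 of HCC 2, HCC 4 or the 6 normal livers was left out (adjusted p up to 0.0723). Some markers of other cells were also called, in both directions. Of 6 stellate cell and fibroblast markers Dcn and Lrat were lower and Col1a1 higher, with summed intensities of 1019 to 48939 in HCC and 6200 to 10402 in normal liver. Of 6 Kupffer cell markers Clec4f was lower, with sums of 3596 to 12993 in HCC and 5545 to 12365 in normal liver. Their part in the differences of the lectin genes was not tested.

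C2 and factor B (Cfb) provide the protease of the classical and lectin convertase and of the alternative convertase. They are paralogues that lie next to each other on chromosome 17 with no protein-coding gene between them. C2 levels were 11.49, 11.62 and 11.88 in HCC and 10.83, 11.14 and 11.41 in normal liver. Cfb levels were 13.69, 13.98 and 14.42 in HCC and 13.25, 13.52 and 13.67 in normal liver. In both genes all 6 HCC lay above all 6 normal livers, HCC 1 was the lowest tumour and HCC 5 the highest. C2 rose by 0.52 ± 0.13 (limma adjusted p = 0.02) and Cfb by 0.52 ± 0.14 (0.0319), and the 3 probe sets of C2 gave 0.51 to 0.61. The call of Cfb was less firm, since leaving out any 1 of HCC 3, HCC 4, HCC 5 or normal 2 to normal 6 brought its adjusted p to between 0.0502 and 0.0727. The scaling changed it too, with 0.0627 under the deposited scaling and 0.129 with each array centred on its median.

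The regulators of the convertases did not pass. Factor I (Cfi), the protease that inactivates C3b and C4b, averaged 15.12 ± 0.22 in HCC and 14.97 ± 0.11 in the normal livers (SD, n = 6 per group, difference 0.14, 95% interval -0.14 to 0.43). Properdin (Cfp), which stabilises the alternative convertase and is made by myeloid cells, averaged 8.78 ± 0.61 in HCC and 9.09 ± 0.52 in normal liver. Its dimmer second probe set went the other way, at 1.13 (limma adjusted p = 0.0454 with every probe set tested), so no direction was settled for this gene.

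**Figure D2:**
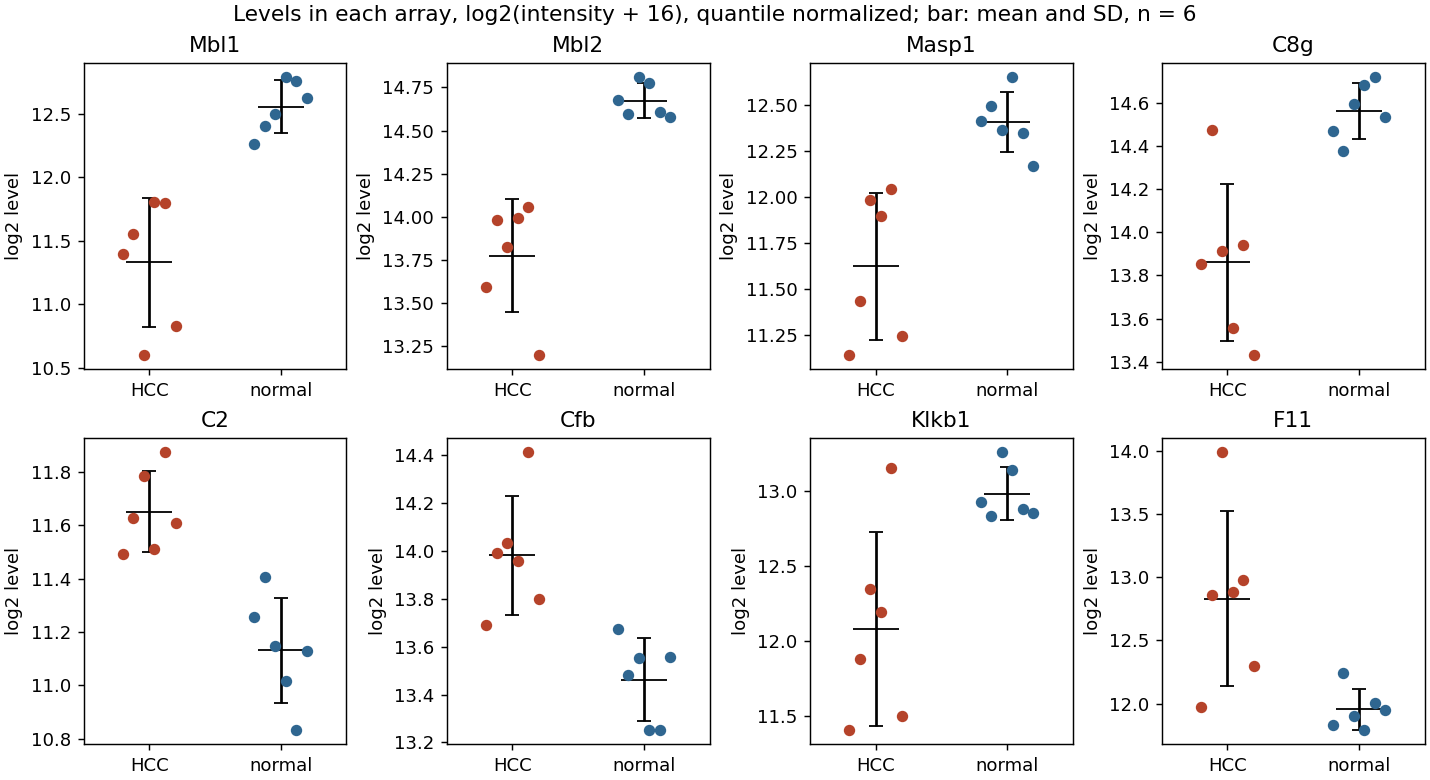
Levels, log2(intensity + 16), in each array of 8 genes, with HCC left of normal liver; points are arrays and bars the mean and SD (n = 6), and each vertical axis has its own range. All 6 HCC lie below all 6 normal livers in Mbl1, Mbl2 and Masp1 and above them in C2 and Cfb, while C8g, Klkb1 and F11 overlap through a single tumour each.

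Of the 6 terminal components measured, C8g was called lower and 5 did not pass. C8g encodes the gamma chain of C8, a lipocalin, and lay at 13.43, 13.88 and 14.47 (lowest, median and highest) in HCC and at 14.38, 14.57 and 14.72 in normal liver. Only HCC 2 reached the range of the normal livers, and the difference was -0.70 ± 0.17 (SE, limma adjusted p = 0.0164). C9, which polymerises into the pore, lay at 10.34, 14.04, 11.13, 10.16, 14.58 and 12.15 in HCC 1 to HCC 6, against 13.24, 14.62, 13.60, 14.33, 14.23 and 14.37 in normal 1 to normal 6. Thus 4 tumours lay below every normal liver and HCC 2 and HCC 5 lay within their range. The difference of C9 was -2.0 ± 0.72 and did not pass (limma adjusted p = 0.0843, 95% interval -3.55 to -0.45). It passed without HCC 2 (0.0365) or without HCC 5 (0.0205).

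C6, C8a and C8b spread over a wide range in both groups. C6 lay at 6.62, 10.70, 9.22, 10.20, 12.38 and 9.36 in HCC 1 to HCC 6, against 7.80, 11.84, 8.91, 11.57, 11.35 and 11.82 in normal 1 to normal 6. C8b lay at 8.95, 10.996, 10.98, 10.63, 11.75 and 10.21 in HCC 1 to HCC 6, against 10.53, 12.55, 10.99, 12.23, 12.32 and 12.09 in normal 1 to normal 6. In both genes normal 1 and normal 3 stood well below the other 4 normal livers, and HCC 1 was the lowest of all 12 arrays. C8a had a lowest level of 12.16 (HCC 6), a median of 13.24 and a highest level of 14.86 (HCC 5) in HCC, against 12.53, 14.11 and 14.87 in normal liver. The differences were -0.80 ± 0.95 for C6, -0.44 ± 0.53 for C8a and -1.20 ± 0.47 for C8b (SE, limma adjusted p of 0.635, 0.639 and 0.108). Hc, the gene of C5 from which the pore starts, averaged 14.43 ± 0.45 in HCC and 14.18 ± 0.32 in the normal livers (SD, n = 6 per group), a difference of 0.25 ± 0.22 (limma adjusted p = 0.514).

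The normal livers without Y-linked signal were the low ones in C6, C8a, C8b and C9. In these 4 of the 14 complement genes all 4 normal livers with the signal lay above the 2 without it, against 9.39% of all genes. In coagulation the split ran mostly the other way, with the 4 all below the 2 in 7 of 19 genes (F5, F7, F10, Kng1, Plg, Hgfac and Ahsg), against 9.36% of all genes, and all above in Serpind1. The split was noticed in these values before it was tested. The difference among normal livers, with minus without the signal, was -0.68 for F7 to -0.16 for Plg in those 7, and 3.29 ± 0.995 for C6, 1.805 ± 0.61 for C8a, 1.54 ± 0.47 for C8b and 0.97 ± 0.77 for C9 (SE, limma, adjusted p from 0.569 to 0.999). Among HCC the same difference was 2.01 for C6, 0.87 for C8a, 1.19 for C8b and 2.72 for C9 (adjusted p from 0.163 to 0.633). None of the 33 genes was called in this contrast within either group, against 0.94% of all genes in HCC and 0.187% in the normal livers. HCC minus normal liver with the signal was -1.23 for C6, -0.75 for C8a, -1.32 for C8b and -1.42 for C9, against 0.05, 0.18, -0.97 and -3.16 without it. The difference between these effects passed in 0 of the 33 genes (limma interaction, lowest adjusted p = 0.327, 3 genes with an unadjusted p under 0.05), against 0.154% of all genes. With the level of the Y-linked genes as a covariate C8b and C9 passed as lower (limma adjusted p of 0.0209 and 0.0218). The other called members kept their sign in both sets of arrays, with and without the signal, at -0.74 and -0.87 for Masp1, -0.64 and -0.83 for C8g, 0.63 and 0.30 for C2, 0.67 and 0.21 for Cfb, and -0.71 and -1.30 for Klkb1.

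**Figure D3:**
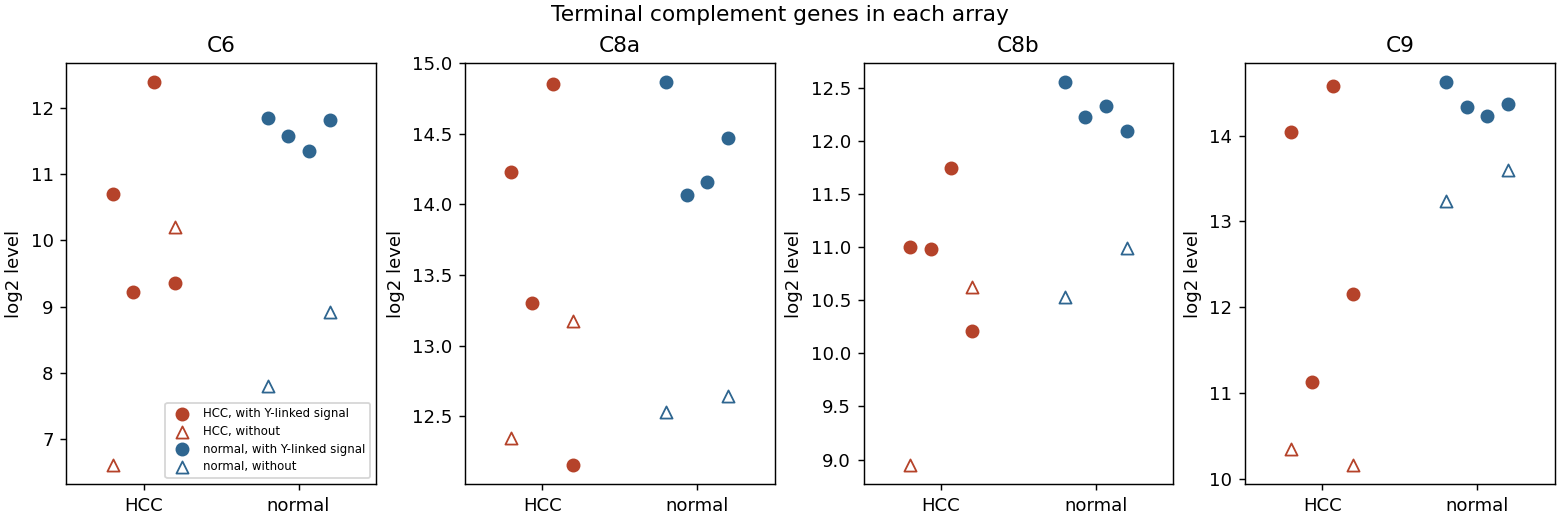
Log2 level (vertical axis, own range for each gene) of C6, C8a, C8b and C9 in the 6 HCC (left) and the 6 normal livers (right); filled circles are arrays with Y-linked signal and open triangles the 2 of each group without it. The 2 open triangles of the normal livers lie below their 4 filled circles in each of the 4 genes.

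C8a and C8b, which encode the alpha and beta chains of C8, lie next to each other on chromosome 4, and their promoters are shown because both varied with the same samples. The windows are chr4:104876349-104876648 on the - strand for C8a and chr4:104766067-104766366 on the + strand for C8b (RefSeq, GRCm38.p6). Capitals mark GTTAAT, the core of the motif bound by the liver factor HNF1, on either strand (ATTAAC in C8b), and in C8a also TTCNNNGAA, the STAT motif.
C8a: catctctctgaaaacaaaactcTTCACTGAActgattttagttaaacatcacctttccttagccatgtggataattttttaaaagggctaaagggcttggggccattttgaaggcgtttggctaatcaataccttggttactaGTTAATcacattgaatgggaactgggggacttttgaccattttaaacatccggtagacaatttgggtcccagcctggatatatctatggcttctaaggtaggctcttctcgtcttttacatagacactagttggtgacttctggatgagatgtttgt
C8b: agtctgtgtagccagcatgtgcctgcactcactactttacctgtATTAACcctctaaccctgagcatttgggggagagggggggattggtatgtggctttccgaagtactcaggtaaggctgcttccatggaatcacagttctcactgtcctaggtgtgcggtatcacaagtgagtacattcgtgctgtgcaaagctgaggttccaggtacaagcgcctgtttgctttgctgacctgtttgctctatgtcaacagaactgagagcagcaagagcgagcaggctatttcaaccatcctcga
GTTAAT was found in 4 of the 10 complement genes with a window (Hc, C8b, C8a and Cfp), in 3 of 16 coagulation genes and in 7.10% of all windows. Such a match describes letters and not a site in use.

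Klkb1 and F11 are paralogous neighbours on chromosome 8, with no protein-coding gene between them, and their differences had opposite signs. Klkb1 encodes prekallikrein, which is activated by factor XII in the contact system, and F11 encodes factor XI, which activates factor IX. Their windows are chr8:45294786-45295085 on the - strand for Klkb1 and chr8:45261982-45262281 on the - strand for F11 (RefSeq, GRCm38.p6), and capitals mark the C/EBP motif TTNNGCAA.
Klkb1: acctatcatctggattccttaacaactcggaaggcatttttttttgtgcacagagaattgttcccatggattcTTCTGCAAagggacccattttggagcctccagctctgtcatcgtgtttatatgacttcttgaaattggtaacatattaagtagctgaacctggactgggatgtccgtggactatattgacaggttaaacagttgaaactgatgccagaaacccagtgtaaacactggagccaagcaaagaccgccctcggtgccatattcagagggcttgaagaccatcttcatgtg
F11: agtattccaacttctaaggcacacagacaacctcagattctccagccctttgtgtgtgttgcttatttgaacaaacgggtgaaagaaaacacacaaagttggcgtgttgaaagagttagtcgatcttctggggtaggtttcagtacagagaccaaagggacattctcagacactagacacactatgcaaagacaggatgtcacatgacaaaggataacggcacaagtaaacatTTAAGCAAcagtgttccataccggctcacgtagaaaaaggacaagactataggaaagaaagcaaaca
This motif was found in 5 of the 16 coagulation genes with a window (Serpinc1, F11, Klkb1, Ahsg and F9), in 1 of 10 complement genes (C9) and in 10.8% of all windows. Both neighbours carry it.

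Klkb1 lay at 11.41, 12.04 and 13.16 (lowest, median and highest) in HCC and at 12.84, 12.90 and 13.26 in normal liver. Only HCC 5 lay within the range of the normal livers, and HCC 1 and HCC 6 were the lowest. The difference was -0.90 ± 0.26 (SE, limma adjusted p = 0.0367). Leaving out any 1 array other than HCC 3 or HCC 5 brought the adjusted p to between 0.0568 and 0.0768, and an exact permutation test of each gene gave 0.0725. F11 lay at 11.97, 12.87 and 13.99 in HCC and at 11.79, 11.93 and 12.24 in normal liver. In 5 of 6 HCC it lay above every normal liver, HCC 3 being highest and HCC 1 the exception, and the difference of 0.88 ± 0.27 narrowly missed the threshold (limma adjusted p = 0.0524). It passed without HCC 1 (0.0191) or without HCC 6 (0.0448), with the dim genes left out (0.0299) and by exact permutation (0.0473).

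The rest of the contact and intrinsic pathway did not pass. Factor XII (F12) differed by 0.14, with a 95% interval of -0.15 to 0.42, and high-molecular-weight kininogen (Kng1), the cofactor of prekallikrein, by 0.12 (-0.15 to 0.40). Kng1 has a near-identical copy, Kng2, so its value is uncertain. Factor IX (F9), the gene lost in haemophilia B, averaged 13.40 ± 0.23 in HCC and 13.44 ± 0.08 in the normal livers (SD, n = 6 per group). Factor VIII (F8), which in liver is made mainly by sinusoidal endothelial cells, lay at 7.25, 8.0 and 9.09 in HCC and at 8.32, 8.95 and 9.18 in normal liver. Its difference of -0.75 ± 0.30 did not pass (limma adjusted p = 0.125), except without HCC 2 (0.0348). The 6 endothelial markers summed to 1560 to 4909 in HCC and 3890 to 6688 in normal liver, with Stab2 and Clec4g lower, and their part in the F8 values was not tested.

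No gene of the extrinsic and common pathway passed. Factor VII (F7), the partner of tissue factor, differed by 0.13 (95% interval -0.35 to 0.61), and its neighbour on chromosome 8, factor X (F10), by 0.10 (-0.28 to 0.48). Prothrombin (F2) averaged 15.15 ± 0.17 in HCC and 15.09 ± 0.03 in the normal livers (SD, n = 6 per group), a difference of 0.06 (-0.19 to 0.31). Factor V (F5), the cofactor of factor X, lay at 13.85, 14.05 and 14.27 in HCC and at 13.25, 13.61 and 13.98 in normal liver, with 4 HCC above every normal liver. Its difference of 0.44 ± 0.14 missed the threshold (limma adjusted p = 0.0571) and passed without normal 3 (0.0374). Fibrinogen, the substrate of thrombin, was measured through Fga, Fgb and Fgg, taken from a fixed list, with differences of 0.02, 0.03 and -0.03. Their group means of 15.43 to 15.76 lay near the upper end of the scale. There quantile normalization gave some arrays the same value, for Fga 15.7581 in HCC 2, HCC 4, normal 1 and normal 2. Whether these differences were compressed was not tested. The carrier subunit of the crosslinking factor XIII (F13b) differed by -0.32 ± 0.15 (limma adjusted p = 0.173).

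None of the inhibitors of clotting or the fibrinolysis genes among the members passed. Antithrombin (Serpinc1) differed by -0.04 (95% interval -0.27 to 0.18), heparin cofactor II (Serpind1) by 0.13 (-0.15 to 0.41) and protein C (Proc), which inactivates factors V and VIII, by -0.13 (-0.43 to 0.17). Protein S (Pros1), the cofactor of protein C, lay at 10.06, 11.40 and 11.85 in HCC and at 10.45, 10.63 and 11.03 in normal liver. HCC 3 was below every normal liver and 4 HCC were above them all, and the difference of 0.52 ± 0.28 did not pass (limma adjusted p = 0.251) unless HCC 3 was left out (0.0473). Plasminogen (Plg) differed by -0.03 (-0.28 to 0.21), and alpha-2-antiplasmin (Serpinf2), the inhibitor of plasmin, by 0.37 ± 0.17 (limma adjusted p = 0.171).

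Hgfac and Ahsg are secreted liver proteins outside the clotting chain. The protease encoded by Hgfac, a relative of factor XII, activates hepatocyte growth factor. It lay at 12.86, 13.09 and 14.35 in HCC and at 12.94, 13.15 and 13.41 in normal liver, with HCC 2 and HCC 3 above every normal liver and the other HCC within or below their range. Ahsg encodes fetuin-A, an inhibitor of mineral deposition, and averaged 15.70 ± 0.02 in HCC and 15.45 ± 0.15 in the normal livers (SD, n = 6 per group), a difference of 0.26 ± 0.11 (limma adjusted p = 0.139). The SD of 0.02 is not a measured spread, since HCC 2 to HCC 5 shared the level 15.7134 after normalization. Their deposited intensities ran from 53037 to 64136. As deposited, the intensities of Ahsg were 48752 to 64136 in HCC and 41014 to 48447 in normal liver and did not overlap. The difference under that scaling was 0.33, and the call was not made there either (limma adjusted p = 0.0749). Ahsg, Kng1, Plg, Serpinc1, F2 and Cfi had mean intensities over 30000 on arrays whose brightest probe sets ranged from 53769 to 82666, and whether differences in these 6 genes were compressed at the upper end of the scale was not tested.

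Individual tumours ranged more widely than individual normal livers. The mean over the 14 complement genes, as a difference from the normal mean, was -1.33, -0.13, -0.51, -0.65, 0.25 and -0.91 in HCC 1 to HCC 6, against -0.44 to 0.36 in the normal livers. HCC 1 was the lowest tumour in 7 of these genes, HCC 6 in 5, and HCC 5 the highest in 8. Over the 4 lectin pathway genes the mean was -1.26, -0.65, -0.90, -0.63, -0.43 and -1.58, below the normal livers (-0.11 to 0.08) in every tumour. Over the 6 terminal genes it was -2.18, 0.02, -0.91, -1.15, 0.56 and -1.24, against -1.02 to 0.68 in the normal livers, so that HCC 2, HCC 3 and HCC 5 lay within the range of the normal livers. Over the 19 coagulation genes it was -0.18, 0.16, 0.29, 0.02, 0.22 and -0.16, against -0.11 to 0.09.

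The SD was larger among HCC than among normal livers in 13 of 14 complement and 16 of 19 coagulation genes, against 64.7% of all genes. It was over 2 times as large in 7 and 10 of them, against 23.5% of all genes. The median ratio of SDs was 1.74 for complement and 2.56 for coagulation, against 1.25 for all genes. These ratios are descriptions with no test, and all SDs were taken after quantile normalization. Serpinc1 had a ratio of 2.70 there and F2 of 6.01, while the deposited intensities of both spread more alike. Those of Serpinc1 ran from 37026.9 to 55238.5 in HCC and from 36249 to 48598.7 in normal liver. Those of F2 ran from 31251.2 to 49501.3 in HCC and from 30851.3 to 37679.3 in normal liver. Ratios under the deposited scaling were not computed, so how far the 2.56 of coagulation depends on the normalization was not tested. In coagulation HCC 1 was the lowest tumour in 8 genes, HCC 6 in 7, and HCC 3 the highest in 9.

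**Figure D4:**
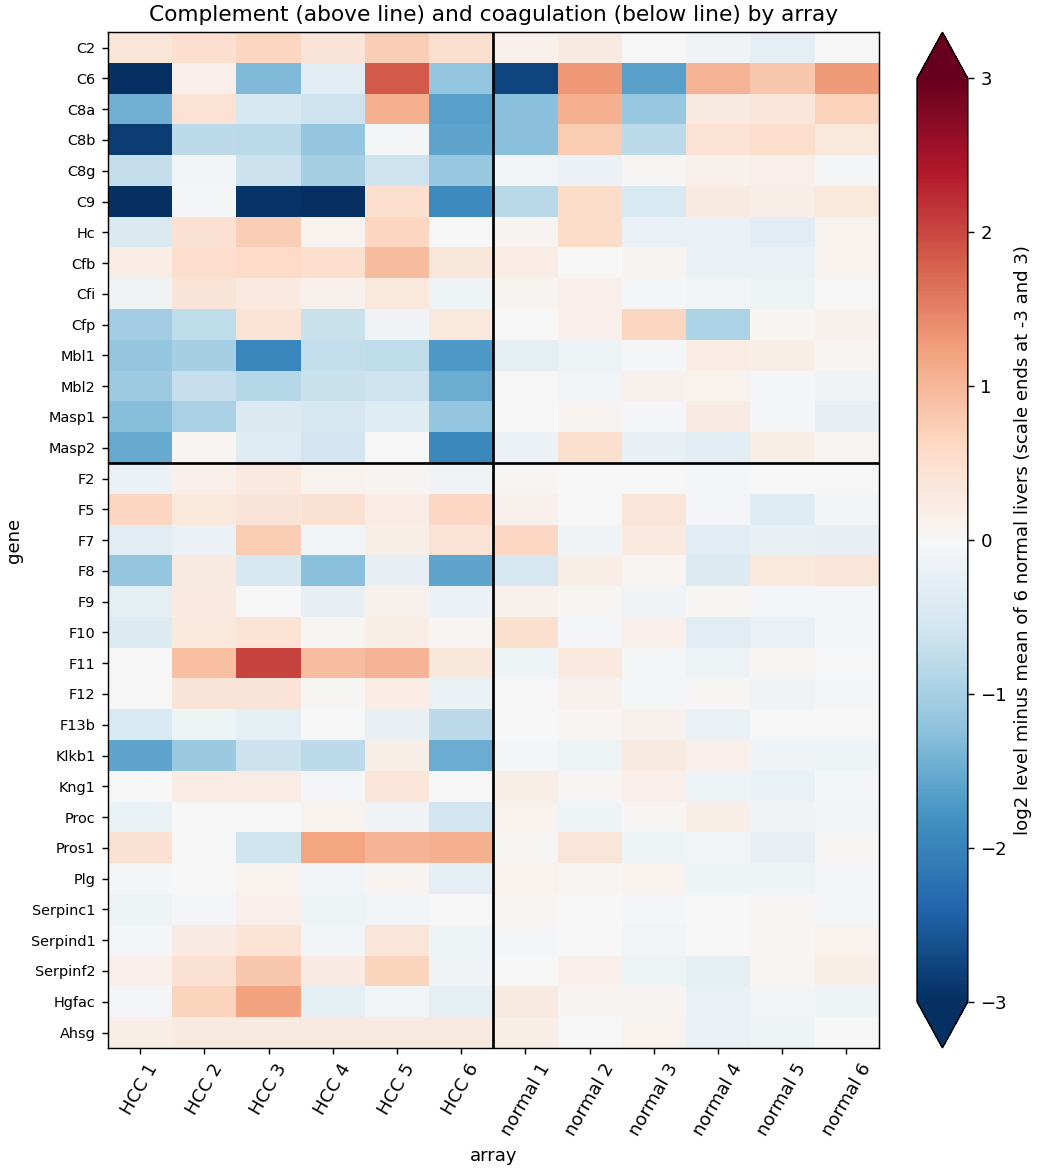
Log2 level minus the mean of the 6 normal livers for each gene (rows, complement above the line and coagulation below it) in each array (columns, HCC left of normal liver), with the colour scale ending at -3 and 3. Blue cells of Mbl1, Mbl2 and Masp1 run through all 6 HCC, those of C9 are strongest in HCC 1, HCC 3 and HCC 4, and most coagulation cells are pale except F11, Klkb1, F8 and Pros1.

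Partner genes of the 2 cascades were taken from fixed lists of 67 symbols, of which 57 were measured, 2 were higher, 7 lower and 48 did not pass. Over all genes 13.7% were called, 6.48% as higher and 7.24% as lower, so the 9 called of 57 were near that share. The median difference of the 57 was 0.06. Besides the 4 initiators of complement above, the transcription factors Cebpa and Nr1h4 (the bile acid receptor FXR) and the growth factor Hgf fell. Cebpa fell by 0.71 ± 0.16 (SE, limma adjusted p = 0.0129) and Nr1h4 by 1.54 ± 0.31 (0.00629), with all 6 HCC below all 6 normal livers in both. The 5 other transcription factors measured did not pass (limma adjusted p from 0.0573 to 0.675). They differed by 0.09 for Hnf4a, 0.44 for Cebpb, 0.57 for Stat3, -0.62 for Foxa2 and -0.94 for Onecut1. Hgf, whose product is activated by Hgfac, fell by 0.91 ± 0.25 (0.0298), a call lost without any 1 of HCC 1, HCC 4, HCC 6, normal 2 or normal 4 to normal 6 (up to 0.0666). None of the 4 fibrinogen and crosslinking genes, the 9 clotting initiators, cofactors and inhibitors or the 3 genes of the vitamin K cycle passed.

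The higher partner genes were Plat and Cr2. Plat, the tissue plasminogen activator, lay at 14.18, 7.82, 8.58, 13.14, 9.22 and 13.36 in HCC 1 to HCC 6, against 5.69, 6.58 and 6.96 (lowest, median and highest) in normal liver. HCC 1, HCC 4 and HCC 6 thus stood far above the other 3 tumours, which were themselves above all normal livers, and the difference was 4.55 ± 1.04 (SE, limma adjusted p = 0.0129). Averaged over its probe sets, the Plat difference was 2.06 and did not pass (0.0757). The complement receptor Cr2, known from B cells and follicular dendritic cells, lay at 5.93, 7.09 and 9.02 in HCC and at 4.80, 5.68 and 6.38 in normal liver, and rose by 1.75 ± 0.48 (0.0311). Its call was lost without any 1 of HCC 1, HCC 4, normal 1, normal 4 or normal 5 (up to 0.0685). None of 5 T and B cell markers passed, with sums of 812 to 3161 in HCC and 650 to 1140 in normal liver.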

How the data were processed

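RNA of 6 spontaneous HCC and 6 normal livers was measured on 12 single-colour Affymetrix arrays. As deposited, the values are linear intensity readings of 45101 probe sets. Their 2% trimmed mean was 500.0 on each array, and 14.2% to 18.1% of readings were under 16. How probes were summarised is not given in the sources used. The values were turned into log2(intensity + 16) and quantile normalized, the 64 control probe sets were left out, and of the rest 34945 named 1 gene, 932 several and 9160 none. For each of 18193 genes the probe set with the highest mean over the 12 arrays was kept; the 33 measured members had 45.

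The 2 groups were compared with limma 3.58.1 in R 4.3.3 (lmFit and eBayes, two-sided, no covariate, Benjamini-Hochberg over all genes). Tested on simulated data for this comparison, the fit called 4% of 50 genes with a simulated log2 change of 0.5, 56% at 1, 78% at 2 and 100% at 4, and 5 of 17993 unchanged genes. Arrays were split by the mean of Eif2s3y, Kdm5d and Uty, and an interaction was fitted. Values within each split and the contrasts inside each group were added once the data had been seen. They are contrasts of the same model of all 12 arrays, with no separate fit of either split.

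The members and lists were chosen with earlier results of these data known. Every member is accounted for, values per sample are given for those called or most spread among tumours, and partner genes are named when called. Hnf4a, Cebpb, Stat3, Foxa2, Onecut1, Fga, Fgb and Fgg were named after their values were seen. Promoter windows came from RefSeq (GRCm38.p6) by symbol for 26 members. Figures and tables used Python 3.11.15, numpy 2.4.6, pandas 2.3.3 and matplotlib 3.10.9. Alternatives changed the pseudocount (1 or 64), scaling, filter, probe set, variance model, block, threshold, covariate, test and arrays.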

Additional observations from a re-analysis of the deposited data

Results flagged for a closer look

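Of 66 sets of 6 values, 33 genes in each group, 1 held a value that stood apart from the other 5. In HCC 1 the level of Ahsg was 15.6556, below the other HCC at 15.7058 to 15.7134, a gap of 0.869 of the whole range. This holds on the quantile normalized scale, where HCC 2 to HCC 5 share the value 15.7134. As deposited, the intensity of Ahsg was 49611 in HCC 1 and lower, at 48752, in HCC 6, so HCC 1 did not stand apart there. By chance about 1 set in 20 would be picked out, or 3.3 of 66. The test of whether the HCC effect depended on Y-linked signal passed in none of the 33 genes.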

How the results depend on the processing

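Under 26 settings none of the 7 called members changed sign; where every probe set was tested by itself, 1 of the 5 probe sets of Masp1 gave 0.07. Of the 7, 5 kept the call with each array left out; Cfb and Klkb1 did not. The 2 higher complement genes became 1 with the deposited scaling, 1 with median centring, 0 with the replicate block, 0 at a threshold of 0.01 and 0 within the arrays without Y-linked signal. Counting every probe set by itself, 5 probe sets of 3 complement genes were higher (3 of C2, 1 of Cfb and 1 of Cfp). The 4 lower complement genes became 2 at 0.01, 2 within the arrays with Y-linked signal and 0 within those without it, which hold fewer arrays. With an array left out the counts ran from 1 to 2 higher and 4 to 5 lower. The 0 higher coagulation genes became 2 with pseudocount 64, 2 with the dim-gene filter, 2 with the trended and robust model (F11 and F5 in each), 1 with the mean of all probe sets, 1 with array weights, 1 with the Y-linked covariate, 3 by exact permutation of each gene (with Ahsg) and 0 to 1 with an array left out. The 1 lower one became 0 with the replicate block, at 0.01, by exact permutation and within either split, and 0 to 1 with an array left out. Partner genes (2 higher, 7 lower) became 1 higher with the mean of all probe sets, 4 (probe sets, not genes) with every probe set, 1 with the replicate block, 0 at 0.01, 1 within the arrays with Y-linked signal and 1 to 4 with an array left out; lower ones became 3 at 0.01, 4 within each split and 5 to 9 with an array left out. The labels do not pair the same-numbered samples, whose deviations from their group means correlated at -0.0147 to 0.0778. With the replicate block, the adjusted p was 0.0799 for C2, 0.112 for Cfb, 0.0605 for C8g and 0.0574 for Klkb1, while C8b passed (0.0353). Over all genes 1179 were higher and 1318 lower, against 862 and 839 with that block, 515 and 461 at 0.01, and 1403 and 1087 with the deposited scaling, where the balance turned.

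With 1 value for each gene, the signs that changed were of members that had not passed. They were F12 (-0.017 with the deposited scaling, -0.085 after median centring), Plg (0.030 with the deposited scaling, 0.039 within the arrays with Y-linked signal, and -0.065 to 0.014 with an array left out, above 0 without HCC 6), Cfp (0.41 with the mean of its probe sets, 0.12 within the arrays with the signal), F9 (0.068 within those, and -0.11 to 0.0031 with an array left out, above 0 without HCC 1), Serpinc1 (0.013 within those) and Hgfac (-0.0026 to 0.30 with an array left out, below 0 without HCC 3). Within the arrays without the signal they were C6 (0.054), C8a (0.18), Cfi (-0.014), F10 (-0.50), F2 (-0.062), F7 (-0.65), Hc (-0.098), Hgfac (-0.35) and Kng1 (-0.21). The cause was not tested. In the simulation 4% of changes of 0.5 were called, but 17993 of its 18193 genes were unchanged. In the data 13.7% of all genes were called, so the adjustment differs between them. How many differences of that size are missed here was not measured.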
